A study of Mus musculus with 2 samples.

Results

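The inflammasome and inflammatory caspase genes are a set of 10 mouse genes chosen by name: the caspase genes *Casp1*, *Casp4* and *Casp12*, the pore gene *Gsdmd*, the adaptor *Pycard*, the sensors *Nlrp3* and *Nlrc4*, the cytokines *Il1b* and *Il18*, and the antagonist *Il1rn*. All 10 were found among the 37071 gene names of the array, through 16 of its 56600 probes. RNA was taken from primary hepatocytes of C57BL/6 background, 1 culture and 1 array per genotype, harvested 24 h after seeding. The control, which the labels call wild type, carried the floxed alleles without Cre (*Drp1*flox/flox), and *Drp1*LiKO cells carried the same alleles with the *Alb-Cre* transgene (*Alb-Cre*Tg/+ *Drp1*flox/flox). The albumin promoter drives Cre in hepatocytes, so other cell types that a preparation still holds keep the gene. The labels name no endotoxin or other stimulus, and the methods state an age range and male sex for purchased C57BL/6J mice without tying them to the donors of these cultures. The number of mice pooled was not given in the sources used here.

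An inflammasome is a cytosolic assembly in which a sensor such as NLRP3 or NLRC4 recruits the adaptor ASC, encoded by *Pycard*, and through it caspase-1. Caspase-1 cleaves the precursors of the cytokines IL-1β and IL-18 and opens gasdermin D, whose fragment forms pores in the plasma membrane, while the caspase encoded by mouse *Casp4* (also called caspase-11) is activated by lipopolysaccharide in the cytosol and cleaves gasdermin D as well. Much of this regulation is at the level of protein cleavage, which an RNA measurement does not see, but several members are also induced at the RNA level by Toll-like receptor and interferon signalling. In liver the pathway is best known in Kupffer cells, the resident macrophages, and it is also described in hepatocytes.

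*Casp1*, *Casp4* and *Casp12* lie next to each other on chromosome 9. On the array, the probe of *Casp4* lay 29.5 kb from that of *Casp1*, and the probes of *Casp12* lay 46.6 and 65.1 kb from it (mm9, as the files give it). Every member probe is 60 bases long and is printed as 1 spot per array. The first 30 bases of the caspase probes are shown, since the values of these genes rest on them, with the position of the whole probe:
Casp1 probe, chr9:5307206-5307265: ctatgctgagaatcgtgccaataagaagcc
Casp4 probe, chr9:5336658-5336717: ccagcctaagcaacacagtgggattctgtt
Casp12 probe 1, chr9:5372258-5372317: actgtttgtctctggcatacatggttttca
Casp12 probe 2, chr9:5353799-5353858: ttcaacaactctaactgtcggagtctgaga
These probes start at bases 1437, 1309, 1828 and 874 of the transcripts they were designed on, so both *Casp12* probes read the same transcript at different places.

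Promoter windows of the 3 caspase genes are shown because these neighbours were all higher in *Drp1*LiKO cells. Each window runs from 250 bases before to 50 bases after a transcription start of RefSeq (GRCm38.p6, plus strand), and capitals mark motifs of inflammatory transcription factors:
Casp4, chr9:5308599-5308898: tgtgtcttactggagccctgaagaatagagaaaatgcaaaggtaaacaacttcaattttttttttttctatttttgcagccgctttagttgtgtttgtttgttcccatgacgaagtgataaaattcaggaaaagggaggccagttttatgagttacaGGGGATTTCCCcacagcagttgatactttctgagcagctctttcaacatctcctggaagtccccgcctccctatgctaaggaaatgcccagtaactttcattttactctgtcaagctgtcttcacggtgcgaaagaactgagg
Casp1, chr9:5298267-5298566: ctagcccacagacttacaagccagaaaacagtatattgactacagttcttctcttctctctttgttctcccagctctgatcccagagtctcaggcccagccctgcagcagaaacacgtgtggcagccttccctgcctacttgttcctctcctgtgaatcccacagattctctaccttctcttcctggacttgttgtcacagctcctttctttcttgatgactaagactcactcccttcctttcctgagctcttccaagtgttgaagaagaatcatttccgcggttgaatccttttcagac
Casp12, chr9:5345226-5345525: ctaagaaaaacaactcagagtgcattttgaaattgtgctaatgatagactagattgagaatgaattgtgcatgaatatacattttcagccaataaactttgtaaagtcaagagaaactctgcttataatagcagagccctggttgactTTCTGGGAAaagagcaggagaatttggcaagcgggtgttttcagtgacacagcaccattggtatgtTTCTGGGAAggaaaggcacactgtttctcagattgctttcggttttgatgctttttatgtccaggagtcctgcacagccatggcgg
The search covered both strands of 13 windows of 9 members and of all 32851 windows of the RefSeq table. The capitals for *Casp4* are 2 overlapping NF-κB matches, the first 93 bases before the start. An NF-κB match stood in 4.51% of all windows and in 2 members, the other being *Nlrp3* at 186 bases before one of its starts. The capitals for *Casp12* are the interferon-γ activated sequence TTCNNNGAA, at 102 and 36 bases before the start, which 8.30% of all windows held and no other member's window held. The interferon-stimulated response element GAAANNGAAA stood in 3.44% of all windows and in none of the 13. The ETS motif GAGGAAGT, read by the myeloid factor PU.1 among others, stood in 3.20% of all windows and only in the window of *Pycard* among the members. The *Casp1* window held none of these motifs. The matches describe the letters alone, and nothing about a factor is drawn from the lack of one.

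Signals are the background-corrected intensities of the scanner software with the error that the software's own model gives (± value), and a ratio is log2 of *Drp1*LiKO over control after each array was scaled to its 75th percentile. Neither genotype was replicated, so no test was possible and each ratio describes these cultures. The only measured error was that between spots of one array: probes printed 10 times varied with a median SD of 0.0366 on the log2 scale on the control array and 0.0414 on the *Drp1*LiKO array, which leaves out the differences between mice, cultures and hybridizations. Signals under the lowest that was well above background, 18.2 on the control array and 15.0 on the *Drp1*LiKO array, were raised to it. A ratio with a signal not well above background on one array is a bound, under this background correction only. A Z score relates a ratio to the mean and the SD (0.652) of the 30275 probes compared, so that a Z score of 2, the criterion the study names, stands at a log2 ratio of 1.30. The members were named with ratios of these arrays already known, so all their values are given as a description.

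*Casp4* stood apart from the other members. Control cells gave a signal of 46.5 ± 6.15 and *Drp1*LiKO cells one of 985 ± 98.6, well above background in both. The log2 ratio was 4.22 (18.7-fold higher, Z score 6.49). That was 52.2 times the noise between spots (0.0809), which is not matched to the low control signal. Of 17735 genes measured on both arrays, *Casp4* had the 5th highest ratio. Among all 20165 genes, bounds included, it ranked 7th, and this rank moved with the processing, to 15 with normexp, 16 with the deposited intensities and 59 with no floor. The next genes above it were *Oasl2* (4.37) and *Phf11a* (4.39), and the next below were *Oas1a* (4.20) and *Oas1g* (4.20). *Oasl2*, *Oas1a* and *Oas1g* belong to the oligoadenylate synthetase family, which interferon is known to induce. Their control signals were low to moderate, 26.1 for *Phf11a*, 74.3 for *Oasl2*, 965 for *Oas1a* and 27.1 for *Oas1g*. Markers of macrophages, which express inflammasome genes strongly, were also higher in the *Drp1*LiKO culture (median log2 ratio 2.42 over 16 markers), and their part in the caspase values was not tested.

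*Casp1*, which encodes the protease at the core of the inflammasome, gave 9.21 ± 4.18 in control, where it was not well above background, and 69.0 ± 7.68 in *Drp1*LiKO cells, where it was. The level in *Drp1*LiKO cells was thus at least 3.34-fold higher (log2 ratio at least 1.74, Z score 2.68). The value depended on the background correction, since with the normexp method the log2 ratio was 0.56, short of the threshold. *Casp12*, whose product has been described at the endoplasmic reticulum, gave 6.41 ± 3.87 in control and 92.9 ± 9.80 in *Drp1*LiKO cells at its brighter probe. This difference was at least 4.49-fold (log2 ratio at least 2.17, Z score 3.34), but the log2 ratio was 0.87 with normexp, 1.35 as the median of both probes and 3.68 with no floor. Its second probe gave 3.71 ± 3.72 and 29.8 ± 4.25, at least 1.44-fold. Both *Casp12* probes were thus seen only on the *Drp1*LiKO array, and the bound of the second was lower because its signal there lay close to the limit.

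**Figure D1:**
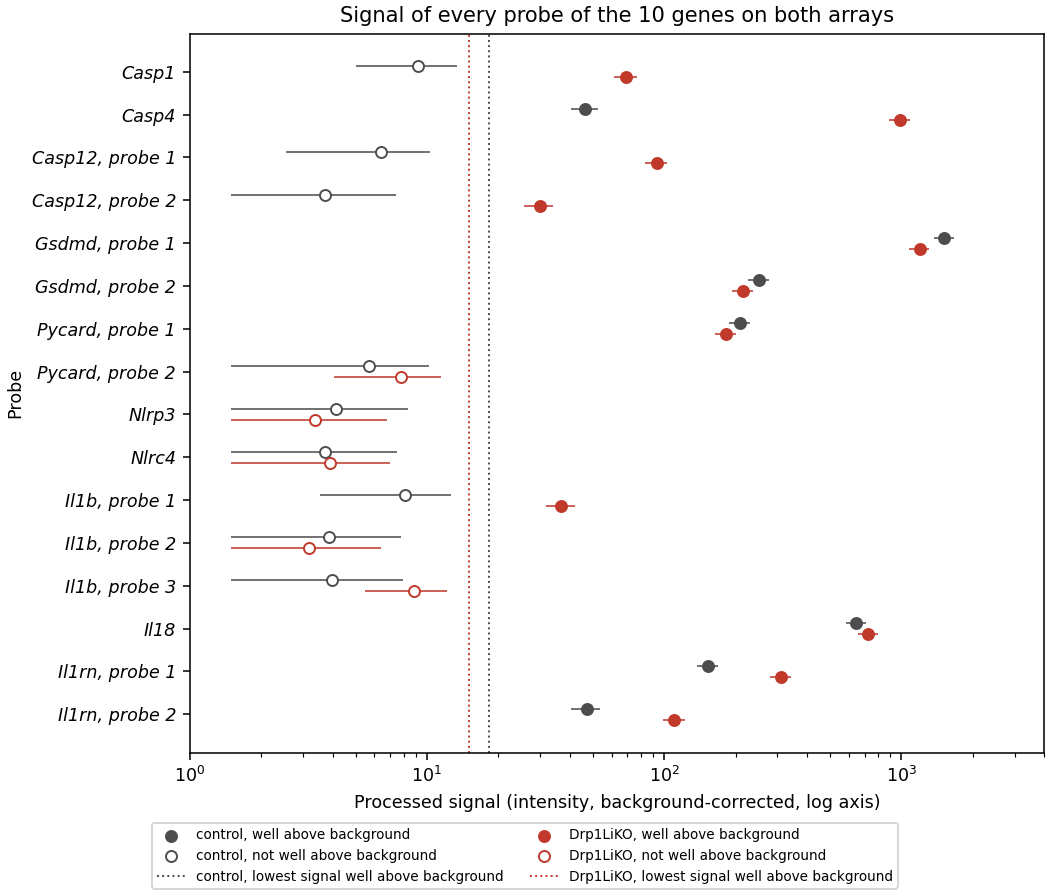
Processed signal (log axis) of all 16 probes of the 10 genes, control in grey and *Drp1*LiKO in red. Open symbols were not well above background, dotted lines mark the lowest signal that was on each array, and bars are the error of the scanner software, cut at the left where they reach the edge; *Casp4* shows the widest gap of the probes filled in both colours, 46.5 against 985.

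The pore and adaptor genes were present in both cultures and somewhat lower in *Drp1*LiKO cells. *Gsdmd*, the substrate that forms the pore, gave 1518 ± 152 in control and 1193 ± 119 in *Drp1*LiKO cells at its brighter probe, a log2 ratio of −0.53. Its second probe gave 251 ± 25.4 and 215 ± 21.7, a log2 ratio of −0.41. Both probes were thus lower in *Drp1*LiKO cells, by 1.44-fold and 1.33-fold, and 9.91% of the genes measured on both arrays had a lower ratio than the first. *Pycard*, the adaptor, gave 209 ± 21.2 and 183 ± 18.6, a log2 ratio of −0.37 (1.29-fold lower). The other *Pycard* probe, designed on another cDNA, was not well above background on either array, at 5.72 ± 4.46 and 7.75 ± 3.70. Neither gene reached a Z score of −2, and their ratios were 7.11 and 4.28 times the noise between spots.

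The sensors were not well above background. *Nlrp3*, which senses potassium efflux and other cell stress, gave 4.15 ± 4.17 in control and 3.37 ± 3.38 in *Drp1*LiKO cells. *Nlrc4*, which responds to bacterial flagellin through the NAIP proteins, gave 3.73 ± 3.74 and 3.90 ± 3.06. Each has 1 probe, at the level of the surrogate values the software sets for spots that do not exceed background, so no ratio can be given and a change below the limit was not detectable.

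Among the cytokines, *Il18* was measured at a similar level in both cultures and *Il1b* only in *Drp1*LiKO cells. The signal of *Il18* was 647 ± 64.8 on the control array against 727 ± 72.7 on the other, and after scaling its log2 ratio was −0.014, less than the noise between spots (0.0866). *Il1b* gave 8.07 ± 4.52 in control and 36.9 ± 5.19 in *Drp1*LiKO cells at its brightest probe, well above background in *Drp1*LiKO cells only, at least 1.78-fold higher (log2 ratio at least 0.84, Z score 1.29). That value too depended on the processing, with a log2 ratio of 0.12 after normexp and of 2.01 with no floor. A second *Il1b* probe on the same transcript, starting at base 703, gave 3.96 ± 3.98 and 8.85 ± 3.35, and the last one, on another transcript, gave 3.88 ± 3.89 and 3.19 ± 3.20, neither well above background on either array. The signal of *Il1b* therefore rested on 1 of 3 probes.

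*Il1rn* encodes the receptor antagonist that competes with IL-1 for its receptor. It gave 153 ± 15.8 in control and 310 ± 31.2 in *Drp1*LiKO cells at one probe and 47.1 ± 6.56 and 111 ± 11.7 at the other. The log2 ratios were 0.84 and 1.05, which is 1.79-fold and 2.07-fold higher, both under the threshold, and 94.8% of the genes measured on both arrays had a lower ratio than the first. The probes of *Il1rn* thus pointed the same way, at 9.66 and 12.1 times the noise between spots, which is not matched to the low signals of the dimmer probe.

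By counts, 8 of the 10 members could be compared, 5 of them measured on both arrays and 3 seen only in *Drp1*LiKO cells. Of the 8, 3 passed a Z score of 2 (*Casp4*, *Casp1* and *Casp12*) and 0 passed −2. Over all 20165 genes compared, 705 (3.5%) passed in the higher direction and 566 (2.81%) in the lower direction. Since *Casp1*, *Casp12* and *Il1b* entered only through the array where they were high, and since the members were named with these ratios known, the counts describe the set and support nothing further. The median log2 ratio was 0.84 over the 8 and −0.05 over all genes. Over the 5 members measured on both arrays it was −0.014.

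**Figure D2:**
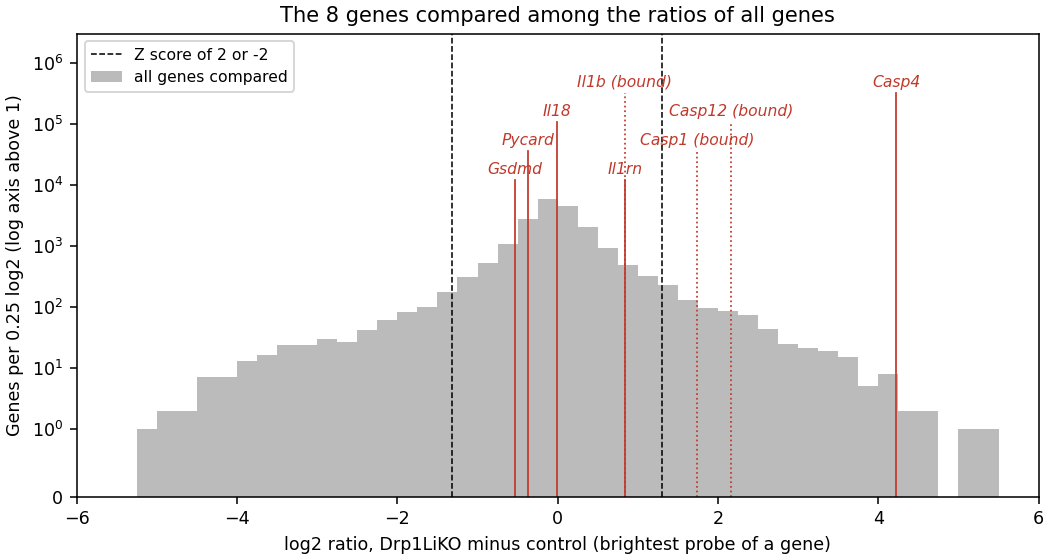
Number of genes (log axis above 1) by log2 ratio of *Drp1*LiKO minus control for the 20165 genes compared, with the 8 members compared marked in red and dashed lines at a Z score of 2 and −2. Dotted red lines are bounds; *Casp4* at 4.22 lies in the far right tail, *Casp12* and *Casp1* lie past the dashed line, and *Il18*, *Pycard* and *Gsdmd* lie in the body of the distribution.

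The other genes of the pathway were described through 7 lists with 74 genes, of which 57 could be compared. Of these, 9 passed a Z score of 2 and 0 passed −2, and the median log2 ratio of the 57 was −0.02. The 9 were spread over 5 lists, and 3 of them were guanylate-binding proteins, interferon-induced GTPases that open bacterial membranes to the caspase encoded by *Casp4*.

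Among 13 further sensors, 6 could be compared and 0 passed the threshold in either direction. The brightest were *Naip5*, at 16528 in control and 20425 in *Drp1*LiKO cells (log2 ratio 0.12), and *Nlrp1a*, at 15056 and 15217 (−0.17). These signals rested on 1 of 2 probes for *Naip5* and on 1 of 3 for *Nlrp1a*, whose remaining probes were not well above background on either array. *Naip5* encodes the receptor that hands flagellin to NLRC4. *Aim2*, the sensor of cytosolic DNA, was seen only in *Drp1*LiKO cells, at 28.6 against 4.23 in control, at least 1.38-fold higher. The other 7 sensors were not well above background on either array.

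Of 8 genes that act upstream of NLRP3, 2 passed the threshold, both of them tied to potassium efflux. *P2rx7*, the ATP-gated channel, gave 22.9 in control and 88.9 in *Drp1*LiKO cells (log2 ratio 1.77), but another of its probes gave 0.18. *Kcnk6*, a potassium channel, gave 36.2 and 122 (1.57). The brightest of the list, *Lrrc8a* and *P2rx4*, had log2 ratios of −0.14 and 0.55, from 14889 and 15313 for *Lrrc8a* and from 8997 and 14900 for *P2rx4*. Their products are subunits of a volume-regulated anion channel and of another ATP-gated channel. A further *P2rx4* probe gave a log2 ratio of −0.07.

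Outside the inflammatory group, 6 of 7 other caspases could be compared and none passed. At their brightest probes the log2 ratios lay between −0.50 and 0.25. The brightest genes, *Casp2* and *Casp6*, had −0.09 (2423 and 2587) and −0.03 (1592 and 1769). These 6 are apoptotic, initiator or related caspases. A further *Casp2* probe gave a log2 ratio of 0.26. Of 8 effectors of lytic death, 7 could be compared and *Zbp1* alone passed, at 259 in control and 1533 in *Drp1*LiKO cells (log2 ratio 2.38). ZBP1 is an interferon-induced sensor of Z-form nucleic acids that acts through RIPK3. The brightest of that list were *Ninj1*, which mediates membrane rupture (26230 and 26646, log2 ratio −0.16), and *Mlkl*, the executor of necroptosis (2554 and 4508, log2 ratio 0.64).

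Of 16 ligands, receptors and binding proteins of the IL-1 and IL-18 families, 8 could be compared and 2 passed, both as bounds. *Il18r1*, a chain of the IL-18 receptor, gave 3.95 in control and 101 in *Drp1*LiKO cells, at least 4.87-fold higher. *Il36g*, named *Il1f9* on the array, gave 12.7 and 58.3, at least 2.82-fold higher. *Il18bp*, the secreted inhibitor of IL-18, gave 270 and 634 (log2 ratio 1.05), under the threshold, and *Il1rap*, the shared receptor chain of the IL-1 family, gave 349 and 250 (−0.66, with another probe at 0.61). No direction is given for *Il1rap*, whose probes differed in sign. The lowest ratio of the list was that of *Il1r1*, at 331 and 160 (log2 ratio −1.23, Z score −1.87). It was short of −2 here but passed it under 3 of the processing alternatives.

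Receptors and factors that prime the pathway formed a list of 15 genes, all of which could be compared, with a median log2 ratio of −0.02. The brightest, *Rela*, an NF-κB subunit, and *Cd14*, a co-receptor for lipopolysaccharide, had log2 ratios of −0.14 (22452 and 23088) and 0.21 (6407 and 8419). In the list of guanylate-binding proteins, 7 genes with *Gm12250* (Irgb10), all could be compared and 3 passed. *Gbp3* gave 134 and 930 (log2 ratio 2.62), *Gbp6* gave 36.8 and 129 (1.63), and *Gbp9* gave 19.4 in control, over the lowest signal there but not well above background, and 64.7 in *Drp1*LiKO cells (1.55). *Gbp2*, the brightest of the list, gave 673 and 1099 (0.53).

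The targeted gene *Dnm1l*, which encodes DRP1, gave 2602 in control and 1217 in *Drp1*LiKO cells (log2 ratio −1.28), and its other probe gave −0.31. Whether these probes lie in the deleted part is not given in the sources used here. The 2 cultures also differed in markers of cells other than hepatocytes. Of 18 markers of Kupffer cells and macrophages, 16 could be compared. At their brightest probes all 16 were higher in *Drp1*LiKO cells and 14 passed the threshold, with a median log2 ratio of 2.42 (range 0.73 to 3.45). Their summed signal came to 5286 on the control array and to 24160 on the *Drp1*LiKO array. Of the 16, 13 were well above background in control and all 16 in *Drp1*LiKO cells. The other 3 were bounds, which could not count as lower. *Timd4* and *Cd163* were not well above background on either array. Another probe gave a log2 ratio of −0.49 for *Mpeg1* (1.73 at its brightest) and of −0.02 for *Csf1r* (0.73 at its brightest). The brightest, *Cd68* and *Lyz2*, gave 2346 and 9593 (log2 ratio 1.85) and 829 and 4464 (2.25).

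Endothelial markers were higher in 13 of 13 (7 past the threshold, median 1.44), and stellate cell markers in 9 of 10 compared (5 past, median 1.45). Among them, 3 endothelial and 5 stellate cell markers were bounds seen only in *Drp1*LiKO cells, which could not count as lower. Over all genes compared, 44.5% were higher. Of 11 neutrophil markers, 4 could be compared, 3 higher and 1 lower. The 1 that passed was *Ly6g*, at 17.5 in control, not well above background, and 76.9 in *Drp1*LiKO cells (log2 ratio at least 1.90). The other 7, *S100a8* and *S100a9* among them, were not well above background on either array. The brightest of that list were *Csf3r* (16566 and 21213, log2 ratio 0.17) and *Elane* (635 and 623, −0.21). Hepatocyte markers had a median log2 ratio of 0.14 over 20 of 21 compared, with 13 higher and 7 lower. Of the 20, 2 passed a Z score of 2 and 0 passed −2 at the brightest probe. The 2 were *Ahsg* (12810 and 51568, log2 ratio 1.83) and *Arg1* (99.8 and 351, log2 ratio 1.63). Another probe of *Fga* (0.32 at its brightest) gave −1.76, past a Z score of −2, which stands at −1.31. The brightest, *Alb* and *Trf*, had 0.10 (219613 and 266703) and −0.28 (191875 and 179058). More cells of a type and more RNA per cell cannot be told apart in such samples. The part of endothelial, stellate or other non-parenchymal cells in the values of the members was not tested either.

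**Figure D3:**
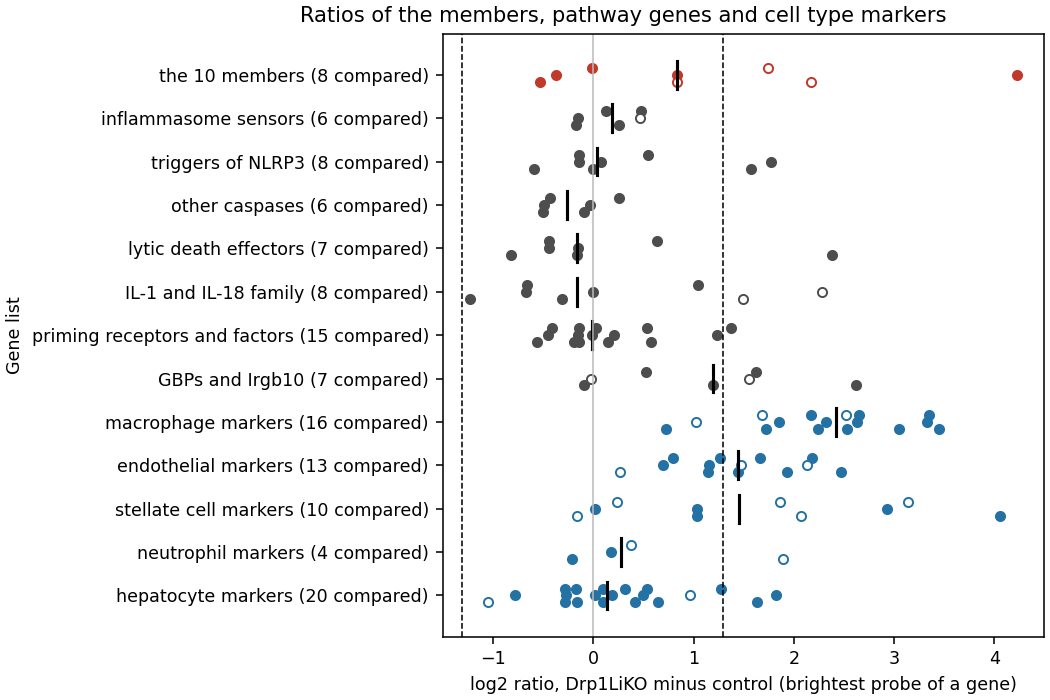
Log2 ratio of *Drp1*LiKO minus control for the members (red), the other pathway lists (grey) and marker lists of cell types (blue), 1 point per gene compared. Open points are bounds, vertical bars are medians and dashed lines a Z score of 2 and −2; the macrophage markers, median 2.42, lie further right than the hepatocyte markers, median 0.14.

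Within 500 kb of the caspase probes, the array held 1 further gene, *Gm31429*, whose probe lay 143 kb before that of *Casp1* (signals of 4.60 and 3.71) and was not well above background on either array. No other neighbour of the caspase genes could therefore be compared with them.

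Among the 5 members measured on both arrays the order by ratio was *Casp4*, *Il1rn*, *Il18*, *Pycard* and *Gsdmd*. The last 2 were close, since the second *Gsdmd* probe (−0.41) lay near *Pycard* (−0.37). *Casp12*, *Casp1* and *Il1b* are bounds and have no place in this order. *Casp4* passed the threshold under all 10 processing alternatives, with log2 ratios from 3.11 to 4.26. The bounds of *Casp12* and *Casp1* moved most, from 0.87 to 3.68 and from 0.56 to 2.72, and *Il18* changed sign around 0, from −0.17 to 0.03.

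**Figure D4:**
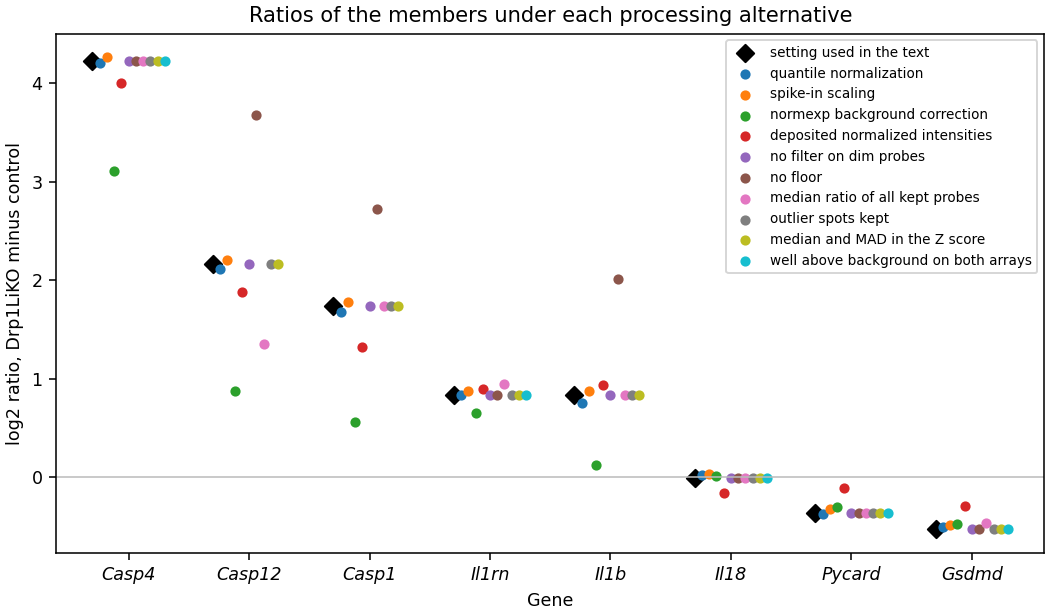
Log2 ratio of *Drp1*LiKO minus control for the 8 members compared under the setting used in the text (black diamonds) and 10 alternatives (circles). *Casp4* lies between 3.11 and 4.26 in all, while *Casp12*, *Casp1* and *Il1b*, dim in control, spread with the background correction and the floor, and have no circle where only probes well above background on both arrays were used.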

How the data were processed

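Total RNA of 1 control and 1 *Drp1*LiKO primary hepatocyte culture was labelled with Cy3 and hybridized to Agilent 60-base mouse arrays. Per the deposited files, each array holds the intensity of every spot as raw mean, local background and background-corrected processed signal, from Feature Extraction (version 9.5.1.1 in the submitters' processing notes, 10.7.1.1 in the file headers). A deposited table of normalized intensities, by a method not given in the sources used here, served only as an alternative.

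Control spots and outlier-flagged spots (71 control, 63 *Drp1*LiKO) were left out, a probe's value was the mean of its log2 processed signals minus the array's 75th percentile (signals of 313 and 356). Probes had to stand well above background on 1 array or both (27256 control, 29462 *Drp1*LiKO), signals under the lowest such signal of the array were raised to it, and a gene was its brightest probe. No spot was saturated (0 and 0). No test was possible with 1 array per genotype, and the number of arrays limits the precision. The expected noise of a ratio was taken from the 50 nearest probes printed 10 times, in signal. It was the same, 0.0866, for the dimmer *Il1rn* probe (47.1 and 111) and for *Il18* (647 and 727), so it does not follow the signal at the dim end. The calculation was tested on simulated data. Genes were named as in the files, older symbols were resolved, and 14 of 16 member accessions stood in the RefSeq table. The members and gene lists were chosen with earlier results of these data known. Named genes were all members, *Dnm1l*, pathway genes past the threshold, the brightest 2 of each pathway list and of the macrophage, neutrophil and hepatocyte lists, genes within 500 kb of the caspase probes and the neighbours in ratio of *Casp4*. One gene that this rule names is not reported here. Others (*Timd4*, *Cd163*, *S100a8*, *S100a9*, *Aim2*, *Ly6g*, *Ahsg*, *Arg1*, *Ly6c2*, *Plac8*, *Mpeg1*, *Csf1r*, *Fga*, *Il1r1*, *Ripk3*) were named after their values were seen. Markers of dendritic cells (0 of 1 compared past the threshold), cholangiocytes (0 of 3), T and NK cells (0 of 3) and B cells (0 of 2) were also summarized. Of 5 monocyte markers compared, 2 passed in the higher direction, *Ly6c2* (log2 ratio 3.55) and *Plac8* (2.89). The other 3 were lower, and the median of the 5 was −0.28. The 10 alternatives were quantile normalization, spike-in scaling (7 probes), normexp with offset 50, the deposited normalized intensities with 1 detection limit for both columns, 2 filters on dim probes, no floor, the median of a gene's probes, outlier spots kept, and a Z score from median and MAD. Python 3.11.15, pandas 2.3.3, numpy 2.4.6, R 4.3.3 and limma 3.58.1 were used.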

Additional observations from a re-analysis of the deposited data

How the results depend on the processing

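No paired analysis was possible because each genotype had 1 array. No alternative turned the direction of *Casp4*, *Casp1* or *Casp12*, and of the members past the threshold only *Casp4* passed under all 10 alternatives, as did *Gbp3* and *Zbp1* among the 9 pathway genes. With probes well above background on both arrays only, 1 member passed and the median of the members was −0.014, since *Casp1*, *Casp12* and *Il1b* then drop out by construction. With the median and MAD in the Z score, 5 members, 14 pathway genes and 3165 of all genes passed, against 3, 9 and 1271. Of the 14 pathway genes, 12 were higher and 2 lower (*Il1r1* and *Ripk3*). The median of the members was 0.34 with normexp background correction, 0.41 with no filter on dim probes and 1.42 with no floor. With no filter, 1952 genes passed, 69.4% of them higher (55.5% in the setting used above, 53.9% to 61.6% under the other alternatives), and the median of all genes shifted by −0.42, since a probe dim on each array then has the ratio of the floors (−0.47). The other counts stayed within 1.5 times. Of 77 member ratios under the alternatives, 60 moved by less than the noise between spots and 17 by more. Many of the 60 could not move, so this count is no measure of stability. The Z score from median and MAD and the 2 filters left every member ratio they kept unchanged, as did no floor for the members measured on both arrays. For the bounds, the limit was the median noise of the other member probes (0.0866). The deposited normalized intensities gave *Casp4* a ratio of 4.00 (log2), and their method is not given in the sources used here. That table is no plain rescaling of the *Drp1*LiKO array: Spearman's rho with its signals over 29462 probes well above background was 0.988, against 1 for control, and 3.65% of these probes differed over 2-fold after centring. Low signal limits *Nlrp3*, *Nlrc4*, *Il1b* and the control values of *Casp1* and *Casp12*, and with 1 array per genotype differences between mice or cultures cannot be told apart from those between genotypes.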
